A study of Arabidopsis thaliana with 24 samples.

Results

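The genes described here encode 10 chaperones, co-chaperones and stress regulators of Arabidopsis thaliana, taken as a list of locus identifiers that was drawn up with results of these data known. They are HSP101 (AT1G74310), HSP90.1 (AT5G52640), HSP70 (AT3G12580), Hsp70b (AT1G16030), Hop3 (AT4G12400), FES1A (AT3G09350), ROF2 (AT5G48570), BAG6 (AT2G46240), MBF1C (AT3G24500) and DREB2A (AT5G05410). All 10 were listed in each of the 5 deposited comparisons, which together list 23865 genes. Transcripts of whole seedlings in the Col_0 background were measured by mRNA sequencing in 24 libraries, as 8 groups of 3 biological replicates. Wild-type groups received KNO3 with H2O2, H2O2, KNO3 or mock treatment, while for either mutant, hbi-q or nlp7-1, there was a KNO3 and a mock group. Every group had grown for 7 days on 7 mM KNO3 and had spent 2 days without nitrogen, so that also the mock groups were nitrogen-starved. The treatments were 10 mM KNO3, 0.5 mM H2O2 or both for 3 h. The names of the deposited tables give the control as KCl, also beside H2O2, whereas the sample labels speak of mock treatment, and mock and H2O2 alone are meant in that sense below. The labels give no length for the mock treatment, do not name the HBI genes mutated in hbi-q, and do not state whether seedlings were pooled for a library.

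Chaperones hold, fold and rescue proteins that stress has unfolded. HSP101 is the cytosolic disaggregase of the ClpB type, which pulls proteins out of aggregates and is needed for acquired heat tolerance. HSP70 proteins bind short hydrophobic stretches in a cycle driven by ATP, and HSP90 proteins finish the folding of clients passed on from HSP70. Hop proteins bridge HSP70 and HSP90, FES1A binds HSP70 and protects it from degradation, ROF2 is a peptidyl-prolyl isomerase of the FKBP family that binds HSP90, and BAG6 carries the BAG domain that contacts HSP70. MBF1C is a transcriptional coactivator required for heat tolerance, and DREB2A is an AP2/ERF activator of drought and heat genes. Heat shock factors switch on many of these genes through heat shock elements, which are repeats of GAA and its complement TTC in alternating direction.

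The upstream sequences are shown because the 10 genes moved together with H2O2 and because such elements can be read directly from them. Within 1000 bases before the coding start, RefSeq sequence of build TAIR10.1 was searched for GAANNTTC and TTCNNGAA, each of which reads the same on both strands. The search also covered the 13-base motifs GAANNTTCNNGAA and TTCNNGAANNTTC, which contain the 8-base ones. An 8-base motif occurred in 9 of 10 windows, against 54.4% of all 27444 coding-start windows, and a 13-base motif occurred in 4 of 10, against 2.02%. In windows of 500 bases the counts were 8 and 3 of 10, against 33.9% and 1.20%, and in the 250 bases before the annotated gene start they were 3 and 1 of 10, against 16.1% and 0.386% of 27443 windows. The longer windows were chosen after the 250-base ones had been seen. Among the other 23 genes of the HSP70, HSP90 and CLPB families, 16 held an 8-base motif and 6 a 13-base motif within 1000 bases. Within 500 bases, 14 and 6 of these 23 did, so the motifs were not particular to the 10 genes. A match is a run of letters and does not show binding. Each line below gives 1 match on the strand of its gene, the 13-base one where there was one and otherwise the one nearest the coding start, with the motif in capitals. ROF2 had no match in this window.
HSP101: taaaataagcGAAAATTCcacgtgacat
HSP90.1: aacgaaaaGAACTTTCTGGAAttcgtttg
HSP70: ttactcgtGAACGTTCTCGAAagctcttt
Hsp70b: acgaccttttTTCTCGAAatgtctcgtt
Hop3: aaaaattcGAAATTTCGAGAActctcttg
FES1A: ttgtagtagcTTCGCGAAtaatctcagg
BAG6: gaaacgaagaGAAAATTCcagatttttc
MBF1C: tcatctctaaGAACGTTCcagagacgaa
DREB2A: cagcgtgtTTCGAGAAGATTCgggaggac

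The matches with 3 alternating units belonged to HSP90.1, HSP70, Hop3 and DREB2A. The HSP90.1 match lay at chr5:21352254-21352282 on the plus strand, 295 bases before the coding start, upstream of its gene model and overlapping the neighbouring gene AT5G52630. The HSP70 match at chr3:3993846-3993874 and the Hop3 match at chr4:7341319-7341347 lay on the minus strand, 177 and 100 bases before the coding start, in an exon of the gene itself. The DREB2A match at chr5:1602033-1602061 on the plus strand lay upstream of the gene, 609 bases before the coding start. The matches of HSP101 (chr1:27940323-27940350, minus strand), Hsp70b (chr1:5504459-5504486, minus strand), FES1A (chr3:2871061-2871088, plus strand) and MBF1C (chr3:8918570-8918597, plus strand) lay in an exon of their own gene before the coding start. The BAG6 match (chr2:18986089-18986116, plus strand) lay upstream of the gene. DREB2A was the member with a 13-base match within 250 bases of its annotated gene start, and this stretch is printed whole (chr5:1601955-1602204, plus strand), with both overlapping 8-base matches in capitals.
DREB2A, 250 bases before the gene start: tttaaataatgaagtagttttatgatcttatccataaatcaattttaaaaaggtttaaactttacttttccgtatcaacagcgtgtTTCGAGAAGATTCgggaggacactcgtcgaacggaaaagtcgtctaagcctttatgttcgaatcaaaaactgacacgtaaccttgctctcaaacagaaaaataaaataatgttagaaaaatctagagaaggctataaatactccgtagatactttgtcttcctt

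The values of single libraries were not used here, so the error given is the standard error (SE) of the authors' DESeq2 fit to 3 libraries a group, and read depth per library is unknown. Group levels below were derived from the deposited base means and fold changes, in normalised counts. For 1761 genes the H2O2 level could be derived from both H2O2 comparisons, and the ratio of the values was 1.05 at the median and rounded to 1.05 for at least 95% of the genes. The gene NLP7 had a base mean in the nlp7-1 comparison 0.422 times that shared by wild type and hbi-q. Counts over a whole gene do not check an insertion within it, and the labels do not describe the nlp7-1 allele. In whole seedlings, fewer cells of a type and less RNA per cell cannot be told apart. Shoot photosynthesis markers and root markers were all detected, with a lowest base mean of 143 for the 9 shoot markers and 52.6 for the 10 root markers.

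H2O2 raised all 10 genes in wild type, by 7.30-fold (ROF2) to 31.7-fold (HSP101), and these were the largest changes of the 10 genes in any comparison. The authors' deposited table for this comparison lists only genes with an adjusted p under 0.05 and at least a 2-fold change, here termed called. It holds 1810 genes, which is 8.11% of the 22311 genes in either H2O2 table, and 1112 of them, 4.98%, were higher. Since the 10 genes were chosen with this result known, their count of 10 of 10 is a description. The same holds for their ranks and for their sizes beside the other listed genes below. Their median log2 fold change was 4.05 in the authors' deposited table, beside 1.72 for all genes listed as higher.

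HSP101, the disaggregase, had a derived level of 6800 normalised counts with H2O2 and 214 with mock treatment. Its log2 fold change of 4.99 ± 0.10 (SE) in the authors' deposited table was the highest of the 10, with an adjusted p listed as 0. HSP90.1, the stress-inducible cytosolic HSP90, reached 9706 normalised counts with H2O2, against 549 with mock treatment. In the authors' deposited table HSP90.1 rose 17.7-fold (log2 4.14 ± 0.08) and had the highest Wald statistic (log2 fold change over its SE) of all 1112 higher genes, followed by HSP101. The pair of cytosolic HSP70 genes differed in starting level and in response.

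HSP70 had derived levels of 11703 normalised counts with H2O2 and 983 with mock treatment, an 11.9-fold rise (log2 3.57 ± 0.09) in the authors' deposited table. Hsp70b had 5205 normalised counts with H2O2 and 198 with mock treatment, a 26.3-fold rise (log2 4.72 ± 0.10) in the authors' deposited table. The gene with the lower starting level thus had the larger fold change of the pair, and its level with H2O2 stayed below that of HSP70. Per kilobase of exon, the derived level of HSP70 was 4644 with H2O2 and 390.0 with mock treatment, the highest of the 10 genes under both. HSP90.1 was next under both, with 4616 per kilobase with H2O2 and 261 with mock treatment. HSP101 had the lowest mock level per kilobase, 63.7, and reached 2023 with H2O2.

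Among the partners, Hop3, the HSP70 to HSP90 adaptor, had 3438 normalised counts with H2O2 and 209 with mock treatment, 16.4-fold higher (log2 4.04 ± 0.10) in the authors' deposited table. FES1A rose to 5271 normalised counts with H2O2, against 385 with mock treatment, and its log2 fold change was 3.78 ± 0.10 with an adjusted p of 1.11e-280 in the authors' deposited table. BAG6 had 3202 normalised counts with H2O2 and 315 with mock treatment, 10.2-fold higher (log2 3.35 ± 0.10) in the authors' deposited table. ROF2 had the smallest response, with 1752 normalised counts with H2O2 and 240.1 with mock treatment and a log2 fold change of 2.87 ± 0.10 (adjusted p 6.49e-173) in the authors' deposited table. The smallest member response was therefore still above the median of 1.72 for all genes listed as higher.

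Both regulators rose as well. MBF1C had 2484 normalised counts with H2O2 and 149 with mock treatment, 16.7-fold higher (log2 4.06 ± 0.13, adjusted p 1.83e-223) in the authors' deposited table. DREB2A had 3810 normalised counts with H2O2 and 140.1 with mock treatment, 27.2-fold higher (log2 4.77 ± 0.12) in the authors' deposited table. Ranked by fold change among the 1112 higher genes in the authors' deposited table, the 10 genes lay between place 71 (HSP101) and place 255 (ROF2). Ranked by the Wald statistic they lay between place 1 (HSP90.1) and place 40 (ROF2). Their median base mean in this comparison was 2338, beside 170 for all 1810 listed genes. The SE that divides the Wald statistic tends to be smaller at high counts, so this rank also depends on level. Beside this response, 3 of 10 root markers were listed as lower with H2O2 (EXPA7 at -2.49, COBL9 at -2.36 and PLT1 at -1.05 log2 in the authors' deposited table) and 2 of 9 shoot markers as higher. The part of tissue makeup in the response was not tested.

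**Figure D1:**
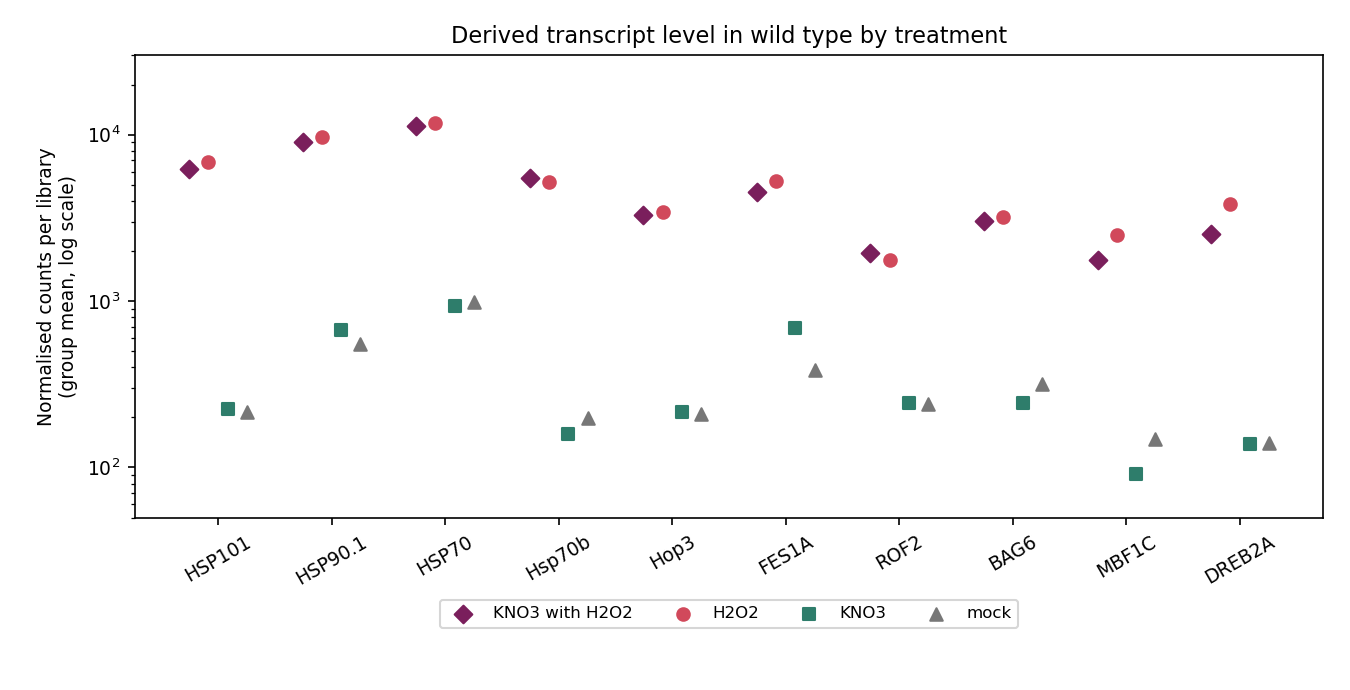
Derived mean level of each of the 10 genes in wild type, in normalised counts per library on a log axis, for KNO3 with H2O2 (diamonds), H2O2 (circles), KNO3 (squares) and mock (triangles); no error bars are drawn because values of single libraries were not used. For every gene both H2O2 groups lie at 1752 normalised counts or more, and the groups without H2O2 lie at 983 or less.

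KNO3 alone changed none of the 10 genes by 2-fold in wild type. Of the 10, 0 were called in the authors' deposited table, beside 14.9% of the 22954 genes tested, and at the adjusted p without a fold limit 2 were higher and 3 lower, beside 58.2% of all genes in either direction. A p under 0.05 before adjustment was listed for 5 of 10. The median log2 fold change of the 10 was 0.01, and that of all genes was -0.01.

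FES1A, which protects HSP70, was the member with the strongest nitrate response in wild type. Its derived level was 684 normalised counts with KNO3 and 385 with mock treatment, 1.78-fold higher (log2 0.83 ± 0.09, adjusted p 1.35e-19) in the authors' deposited table. HSP90.1 had 673 normalised counts with KNO3 and 549 with mock treatment, a log2 difference of 0.29 ± 0.10 (adjusted p 0.00477) in the authors' deposited table. Beside these values, 6 of 9 shoot markers were called higher with KNO3 in wild type, with a median log2 fold change of 1.08, and 1 of 10 root markers. The summed base mean of the shoot markers over wild type and hbi-q was 50062 normalised counts and that of the root markers 4392, and no single marker was at 0. The part of tissue makeup in the FES1A and HSP90.1 values was not tested.

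MBF1C, the coactivator, had 91.5 normalised counts with KNO3 and 149 with mock treatment, lower by a log2 value of -0.70 ± 0.17 (adjusted p 0.000149) in the authors' deposited table. BAG6 was lower too, with 245 normalised counts with KNO3 and 315 with mock treatment (log2 -0.36 ± 0.12, adjusted p 0.00414 in the authors' deposited table). Hsp70b had 159 and 198 normalised counts with KNO3 and with mock treatment (log2 -0.32 ± 0.14, adjusted p 0.0331 in the authors' deposited table). The other 5 genes, HSP101, HSP70, Hop3, ROF2 and DREB2A, lay between -0.08 and 0.06 in log2 units with adjusted p-values of 0.440 to 0.951 in the authors' deposited table. An adjusted p above the threshold does not show that a gene kept its level.

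In hbi-q, too, KNO3 changed none of the 10 genes by 2-fold. The authors' deposited table called 0 of 10, beside 16.1% of 22954 genes, and at the adjusted p alone listed 3 as higher and 1 as lower, beside 58.3%. FES1A was 1.93-fold higher with KNO3 than with mock treatment (log2 0.95 ± 0.09, adjusted p 3.76e-25 in the authors' deposited table). HSP90.1 was higher by 0.60 ± 0.10 (adjusted p 1.27e-09) and HSP101 by 0.31 ± 0.11 (adjusted p 0.0126) in log2 units in the authors' deposited table. MBF1C was lower, at a log2 value of -0.57 ± 0.17 (adjusted p 0.0022) in the authors' deposited table. The remaining 6 lay between -0.26 (Hsp70b) and 0.29 (DREB2A) with adjusted p-values from 0.0798 to 0.610 in the authors' deposited table. Shoot markers were called higher in 6 of 9 cases here too, with a median log2 fold change of 1.17.

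The difference between the nitrate responses of hbi-q and wild type was tested by subtracting 1 log2 fold change from the other and dividing by the combined SE, with Benjamini-Hochberg adjustment over all genes in both tables. It called 0 of 10 genes, beside 5.61% of 22954, and 1 of 10 had an unadjusted p under 0.05. That gene was HSP90.1, whose log2 response was 0.31 ± 0.14 higher in hbi-q than in wild type (95% interval 0.04 to 0.58, adjusted p 0.197). The differences ran from -0.21 (ROF2, 95% interval -0.54 to 0.13) to 0.31, and 8 of 10 were above 0. For FES1A the difference was 0.12 ± 0.13 (95% interval -0.13 to 0.36). The fit shared by both genotypes also allows a derived mock level in hbi-q relative to wild type, which lay between 0.868 (HSP90.1) and 1.04 (DREB2A), beside a median of 1.02 over 1220 listed genes. It has no error, and a scale shift of 1.05-fold in the wild-type level moved that range to 0.779 to 0.949 or to 0.956 to 1.14.

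In nlp7-1, the mutant named for NLP7, the transcription factor known as a main regulator of early nitrate responses, DREB2A rose with KNO3. The authors' deposited table called 1 of 10 genes, DREB2A, beside 15.7% of 22610 genes in either direction and 9.03% as higher. The derived level of DREB2A was 130.4 normalised counts with KNO3 and 55.2 with mock treatment, 2.36-fold higher (log2 1.24 ± 0.38, adjusted p 0.00373) in the authors' deposited table. The level of DREB2A with KNO3 in nlp7-1 was thus close to the 139 and 140.1 normalised counts derived for wild type with KNO3 and with mock treatment, and the nlp7-1 mock level was the low one. These levels come from separately normalised fits and were not compared by a test. The base mean of DREB2A in nlp7-1 was 0.616 times that shared by wild type and hbi-q. For 18085 genes with a shared base mean above 50, the middle 95% of such ratios ran from 0.476 to 1.85. Among the other members the ratio ran from 0.829 (BAG6) to 2.04 (HSP90.1). HSP90.1 had a derived mock level of 1101 normalised counts in nlp7-1 and 549 in wild type.

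At the adjusted p alone, 3 of 10 genes were higher and 1 was lower with KNO3 in nlp7-1, beside 42.6% of all genes. FES1A was higher, with 709.6 normalised counts with KNO3 and 442 with mock treatment (log2 0.68 ± 0.17, adjusted p 0.000326 in the authors' deposited table). HSP101 had 278 normalised counts with KNO3 and 196 with mock treatment (log2 0.50 ± 0.18, adjusted p 0.0167 in the authors' deposited table). MBF1C was lower, at 152 normalised counts with KNO3 and 263 with mock treatment (log2 -0.79 ± 0.20, adjusted p 0.000358 in the authors' deposited table). FES1A and MBF1C were therefore past the adjusted p in the same direction in all 3 genotypes. Hop3 had a log2 fold change of 0.79 ± 0.36 that missed the threshold (adjusted p 0.0656 in the authors' deposited table). The other 5 lay between -0.18 (HSP70) and 0.58 (ROF2), with adjusted p-values of 0.269 or more in the authors' deposited table.

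Several members had wide errors in nlp7-1. The SE of ROF2 in the authors' deposited table was 2.08 times the median SE of genes with a base mean within 2-fold of its own, and 98.6% of those genes had a smaller one. For HSP90.1 the SE was 1.87 times, for Hop3 1.85 times, for BAG6 1.66 times and for DREB2A 1.49 times such a median in the authors' deposited table. For HSP70 it was 1.47 times and for Hsp70b 1.30 times. FES1A, MBF1C and HSP101 were close to it, at 1.04, 0.994 and 0.938 times. The fold changes of the members with the wide errors were thus less certain in nlp7-1 than those of most genes of like level. The source of the wider errors was not tested.

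The test of the difference between the nitrate responses of nlp7-1 and wild type called 1 of 10 genes, beside 11.7% of 21790 genes in either direction and 4.33% above 0. It was DREB2A, whose log2 response was 1.24 ± 0.38 in nlp7-1 and -0.01 ± 0.15 in wild type, a difference of 1.25 ± 0.41 (95% interval 0.45 to 2.06, adjusted p 0.0275). This call was lost when the test statistic was rescaled by its spread over all genes (adjusted p 0.995) and at an adjusted p threshold of 0.01. HSP101 (0.44 ± 0.22, adjusted p 0.157), BAG6 (0.70 ± 0.34, adjusted p 0.161) and Hop3 (0.74 ± 0.38, adjusted p 0.182) had differences above 0 that did not pass. FES1A differed by -0.15 ± 0.19 (95% interval -0.53 to 0.23) and MBF1C by -0.09 ± 0.26 (95% interval -0.61 to 0.43). Beside the DREB2A value, 1 of 9 shoot markers was called higher with KNO3 in nlp7-1, against 6 of 9 in wild type, and their summed derived level in nlp7-1 was 46242 normalised counts with KNO3 and 33983 with mock treatment. The part of tissue makeup in the DREB2A difference was not tested.

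**Figure D2:**
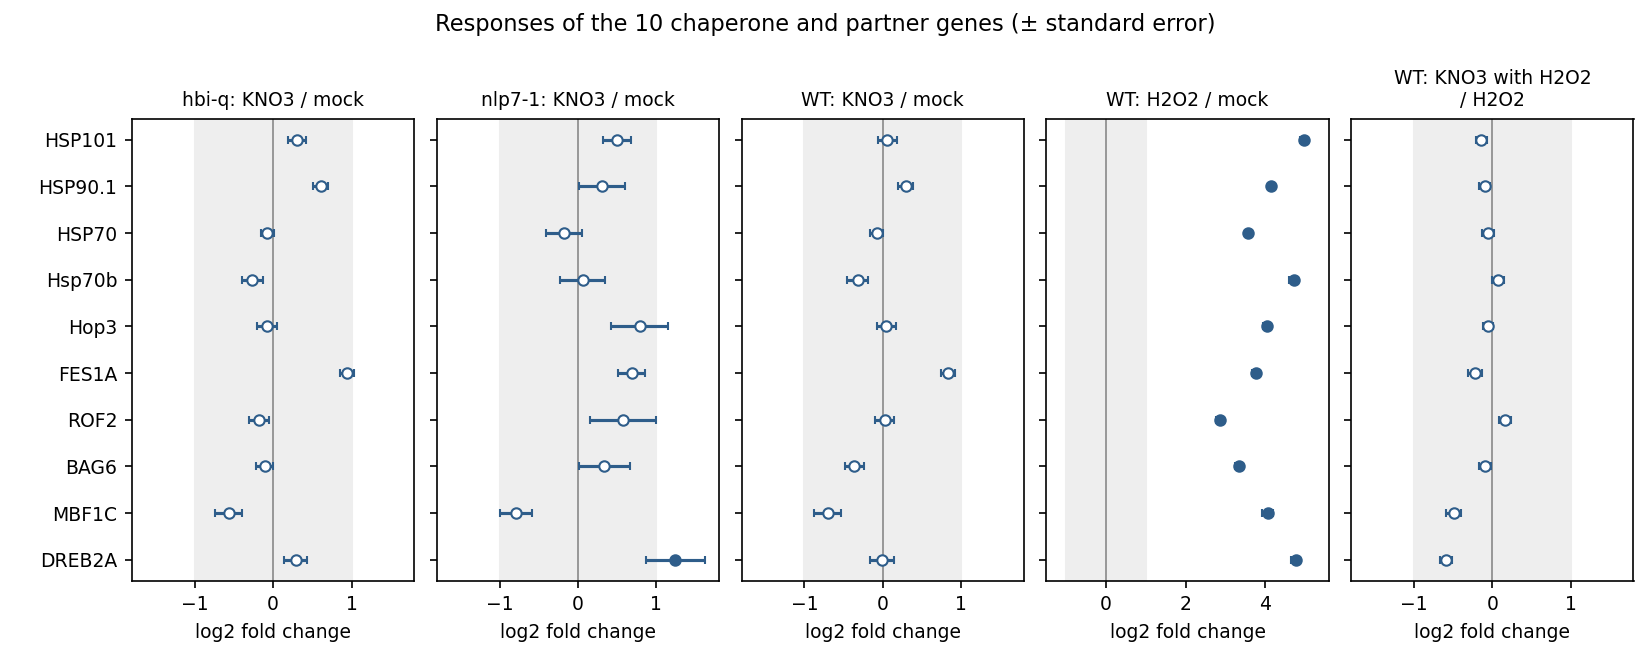
Log2 fold change of each of the 10 genes with its SE (bars) in the 5 deposited comparisons, with filled points for genes called at an adjusted p under 0.05 and at least 2-fold and the 2-fold range shaded. The H2O2 panel has its own, wider axis, on which all 10 points lie between 2.87 and 4.99, and in the other panels DREB2A in nlp7-1, at 1.24, is the filled point.

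Adding KNO3 to H2O2 left the 10 genes within 1.51-fold of H2O2 alone. The authors' deposited table called 0 of 10, beside 10.7% of 22302 genes, and at the adjusted p alone listed 0 as higher and 3 as lower, beside 53.3%. DREB2A had a derived level of 2528 normalised counts with KNO3 and H2O2 and 3810 with H2O2 alone, lower by a log2 value of -0.59 ± 0.08 (adjusted p 3.69e-12) in the authors' deposited table. MBF1C had 1761 normalised counts with KNO3 and H2O2 and 2484 with H2O2 alone (log2 -0.50 ± 0.10, adjusted p 1.92e-06 in the authors' deposited table). FES1A had 4528 normalised counts with KNO3 and H2O2 and 5271 with H2O2 alone (log2 -0.22 ± 0.09, adjusted p 0.0227 in the authors' deposited table). Both transcriptional regulators were thus among the 3 lower genes.

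The chaperones themselves differed less. HSP101 had 6171 normalised counts with KNO3 and H2O2 and 6800 with H2O2 alone (log2 -0.14 ± 0.07, adjusted p 0.0904 in the authors' deposited table). HSP90.1 had 9061 and 9706, HSP70 11233 and 11703, and Hsp70b 5472 and 5205 normalised counts with KNO3 and H2O2 and with H2O2 alone. Their log2 fold changes were -0.10 ± 0.07, -0.06 ± 0.07 and 0.07 ± 0.07, with adjusted p-values of 0.206, 0.538 and 0.419 in the authors' deposited table. Hop3, BAG6 and ROF2 lay between -0.09 and 0.16 in log2 units, and none passed the adjusted p in the authors' deposited table. For all 10 genes, both H2O2 groups lay above both groups without H2O2 in derived level.

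The nitrate response with H2O2 was compared with that without H2O2 in wild type by the same test of a difference, which called 4 of 10 genes, beside 24.8% of 22204. Of the 4, 1 lay above 0 and 3 below, beside 11.4% and 13.4% of all genes. The same difference can be read as the H2O2 response with KNO3 minus that without it. FES1A stood out, with a log2 nitrate response of -0.22 ± 0.09 with H2O2 and 0.83 ± 0.09 without, a difference of -1.05 ± 0.12 (adjusted p 2.25e-15). Read the other way, the derived H2O2 response of FES1A was 6.63-fold in KNO3-treated and 13.7-fold in mock-treated seedlings. FES1A was also the member with the largest response to KNO3 without H2O2.

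DREB2A differed by -0.58 ± 0.17 (adjusted p 0.00598), and its H2O2 response was 18.2-fold with KNO3 and 27.2-fold without. HSP90.1 differed by -0.39 ± 0.12 (adjusted p 0.00507), with H2O2 responses of 13.5-fold with KNO3 and 17.7-fold without. Hsp70b went the other way, with a difference of 0.39 ± 0.15 (adjusted p 0.0440) and H2O2 responses of 34.5-fold with KNO3 and 26.3-fold without. The other 6 ran from -0.20 (HSP101, 95% interval -0.47 to 0.07) to 0.27 (BAG6, 95% interval -0.0022 to 0.54), and for HSP70 the difference was 0.02 (95% interval -0.20 to 0.24). With the test statistic rescaled by its spread over all genes, 1 of 10 was called, and this was FES1A. The calls of HSP90.1, Hsp70b and DREB2A were lost there, with adjusted p-values of 0.561, 0.828 and 0.579. All 3 difference tests use the same nitrate response of wild type, so their results are not independent.

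**Figure D3:**
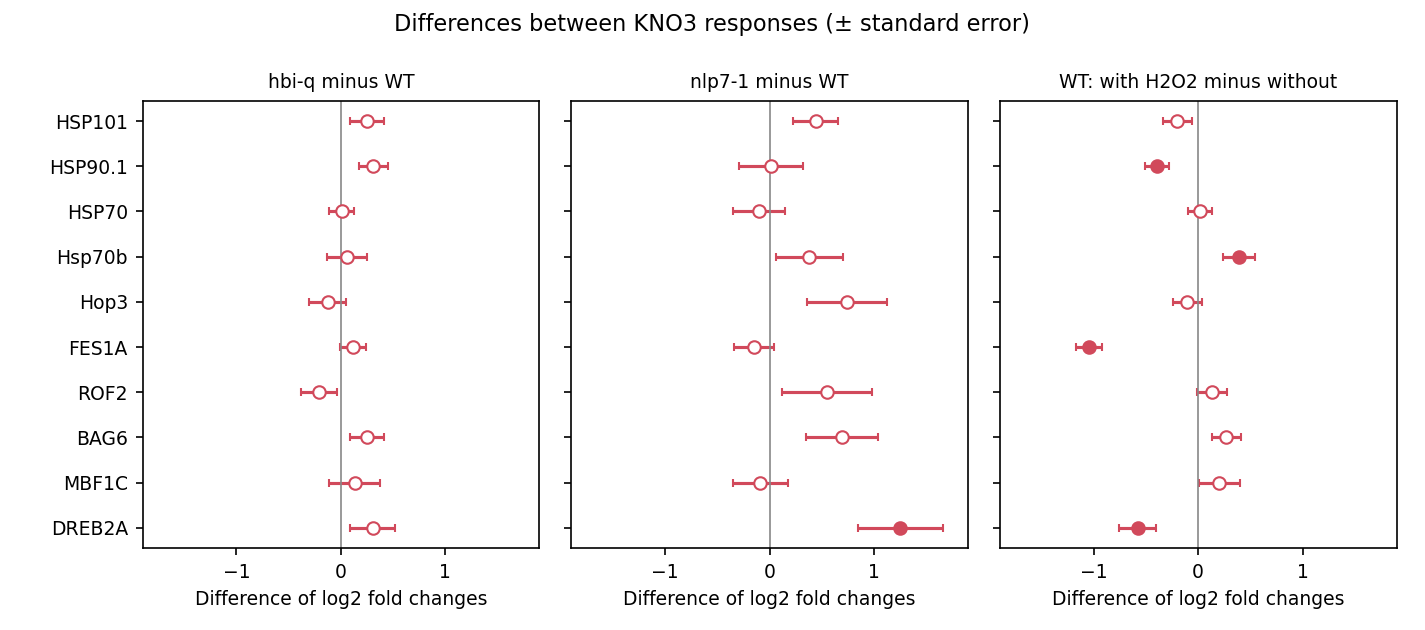
Difference between log2 nitrate responses for each of the 10 genes, with its combined SE (bars), for hbi-q minus wild type, nlp7-1 minus wild type, and wild type with H2O2 minus without; filled points were called at an adjusted p under 0.05. The filled points are DREB2A at 1.25 in the nlp7-1 panel and FES1A at -1.05, DREB2A at -0.58, HSP90.1 at -0.39 and Hsp70b at 0.39 in the H2O2 panel.

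The 10 genes were set beside the other members of their families. The 10 were chosen with the H2O2 result known, so their distance from these relatives with H2O2 is a description. Over all genes, 8.11% were listed with H2O2, the share to set beside the family counts below. Of the other 14 HSP70 genes, which include the constitutive cytosolic HSC70-1 and the forms of endoplasmic reticulum, mitochondria and plastids, 2 were listed in the H2O2 comparison. They were BIP3, a chaperone of the endoplasmic reticulum, at a log2 fold change of 2.33 ± 0.14, and the cytosolic AT3G09440 at 1.01 ± 0.08 in the authors' deposited table. With KNO3 in wild type, 13 of the 14 were higher at the adjusted p, beside 29.7% of all genes, and 2 of them were called, a share near the 14.9% of all genes, with a median log2 fold change of 0.64 in the authors' deposited table, beside -0.01 for all genes. The called genes were the mitochondrial mtHsc70-1 (1.31 ± 0.05) and the plastid cpHsc70-2 (1.45 ± 0.05) in the authors' deposited table. HSP70 and Hsp70b, at -0.08 and -0.32 in the authors' deposited table, both lay below all 14 of these genes, of which BIP3 was lowest at -0.02. With KNO3 in nlp7-1, fewer of the 14 were higher at the adjusted p, 8, beside 4662 of 22610 genes. Their log2 fold changes in nlp7-1 ran from -0.57 (HSC70-2) to 1.24, with a median of 0.49. Their errors were wider in nlp7-1 than in wild type, and the difference between genotypes was not tested for them.

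Of the other 6 HSP90 genes, 0 were listed with H2O2. With KNO3 in wild type 6 of 6 were higher at the adjusted p, at 0.32 or more, and 2 were called in the authors' deposited table, where HSP90.1 was also higher, at 0.29. These were the plastid CR88, also known as HSP90.5, at 1.46 ± 0.07, and the mitochondrial Hsp89.1 at 1.18 ± 0.09 in the authors' deposited table. Both were called in hbi-q (1.72 ± 0.07 and 1.57 ± 0.09), in nlp7-1 (4.28-fold and 3.17-fold) and with KNO3 and H2O2 against H2O2 (1.69 ± 0.07 and 1.81 ± 0.08) in the authors' deposited table. In nlp7-1, 2 of the 6 HSP90 genes were higher with KNO3 at the adjusted p, beside 4662 of 22610 genes. In wild type it was 6 of 6, beside 29.7% of all genes. The SE of each was wider in nlp7-1, for HSP90.2 0.23 against 0.06 in wild type. The difference between genotypes was not tested for these genes, so fewer calls do not show a smaller response. A gene not listed with H2O2 did not pass both of the authors' limits there or was left out of their test. Its value is not known here, and a response of less than 2-fold would not be listed. HSP90.1 and its cytosolic relatives are similar in sequence, and counting with default settings leaves out reads that map to several genes.

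In the CLPB family, the plastid CLPB3 was lower with KNO3 in wild type (log2 -1.36 ± 0.07) and in hbi-q (-1.21 ± 0.07) in the authors' deposited table, and was not listed with H2O2. CLPB3 was also lower at the adjusted p, short of 2-fold, in nlp7-1 (-0.99 ± 0.19) and with KNO3 and H2O2 against H2O2 (-0.65 ± 0.07). The mitochondrial CLPB4 was listed with H2O2 at 1.25 ± 0.11 in the authors' deposited table. Of the other 15 co-chaperones, 0 were listed with H2O2. With KNO3 in wild type 10 were higher and 2 lower at the adjusted p, beside 58.2% of all genes in either direction, and 2 of 15 were called, a share near the 14.9% of all genes. The called ones were Fes1B, a relative of FES1A, at 1.24 ± 0.16 and BAG2 at -1.04 ± 0.15 in the authors' deposited table. Hop1 (0.56 ± 0.06), Hop2 (0.51 ± 0.06) and ROF1 (0.80 ± 0.06), the close relatives of Hop3 and ROF2, were higher at the adjusted p with KNO3 in the authors' deposited table, where Hop3 had 0.05 ± 0.12 and ROF2 0.03 ± 0.12.

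Among the other 9 MBF1 and DREB2 genes, 3 were listed with H2O2 in the authors' deposited table: DREB19 at 2.55 ± 0.26, DREB2C at 2.25 ± 0.12 and DREB2B at 1.39 ± 0.21. DREB2C rose with KNO3 in nlp7-1 by 2.12 ± 0.26, against 0.79 ± 0.13 in wild type, in the authors' deposited table. The test of this difference gave 1.32 ± 0.29 (adjusted p 0.000351), a call that was lost with the statistic rescaled by its spread over all genes (adjusted p 0.954). DREB2A and DREB2C were the called genes of this list in nlp7-1. MBF1A and MBF1B were not listed with H2O2, and their values with KNO3 in wild type were 0.10 ± 0.08 and -0.07 ± 0.07 in the authors' deposited table.

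**Figure D4:**
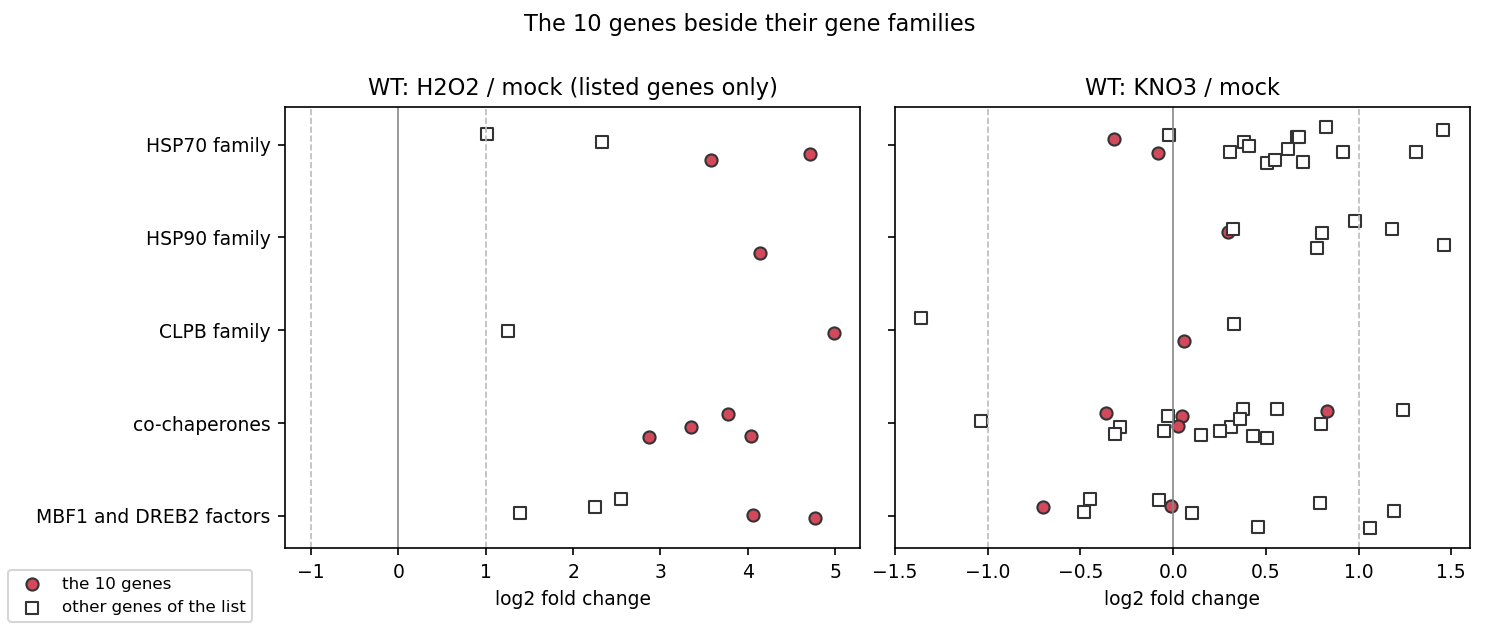
Log2 fold change of the 10 genes (filled circles) and of the other genes of their families (open squares) for H2O2 against mock (left, only genes that passed the authors' limits) and KNO3 against mock (right) in wild type, with dashed lines at 2-fold; vertical scatter within a row has no meaning. On the left the 10 genes, chosen with this result known, lie between 2.87 and 4.99 and the other listed genes between 1.01 and 2.55. On the right 13 of 14 other HSP70 genes and 6 of 6 other HSP90 genes were higher at the adjusted p, beside 29.7% of all genes.

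Heat shock factors and small heat shock proteins, which are regulated beside these chaperones under heat, were measured in the same comparisons. With H2O2, 5 of the 10 heat shock factors found in the wild-type tables were listed, all higher, led by HSFA2 at 5.85 ± 0.15 in the authors' deposited table, and followed by AT-HSFA7B (2.66 ± 0.74) and HSFA7A (2.51 ± 0.13). HSFB1, also in the list of 11, was not analysed here in wild type. All 13 small heat shock proteins were listed as higher with H2O2, from 3.38 ± 0.24 (HSP18.2) to 10.12 ± 0.84 (HSP23.6-MITO), where the authors' deposited table has a median of 7.93. The highest after HSP23.6-MITO were HSP17.6A (9.95), HSP17.6II (9.60), AT1G53540 (9.53) and ATHSP22.0 (9.36) in the authors' deposited table. HSP17.4 (7.95), AT1G52560 (7.93), AT1G07400 (7.01), HSP21 (6.64) and AT1G59860 (6.32) followed, then AT5G51440 (5.58) and AT5G37670 (3.56), in the authors' deposited table. The median of 4.05 of the 10 genes lay below that of the small heat shock proteins. Over wild type and hbi-q without H2O2, 12 small heat shock proteins were listed, with a summed base mean of 302 normalised counts. AT5G51440 alone had 180 of this. The 10 genes had a median base mean of 230 there, so the fold changes of both sets start from unlike levels. HSFA2 was also called with KNO3 alone, at 1.72 ± 0.20 in hbi-q, 2.08 ± 0.28 in nlp7-1 and 1.11 ± 0.21 in wild type in the authors' deposited table. Of the small heat shock proteins, AT5G51440 was called with KNO3 in all 3 genotypes, at 2.31 ± 0.16 in hbi-q, 1.08 ± 0.22 in nlp7-1 and 2.11 ± 0.16 in wild type in the authors' deposited table. HSP17.6II (4.12 ± 1.21) and HSP18.2 (1.03 ± 0.36) were called in nlp7-1 and HSP17.6A (1.40 ± 0.62) in wild type in the authors' deposited table. Their base means in those comparisons were low, at 6.46, 35.7 and 8.75 normalised counts. With KNO3 and H2O2 against H2O2, 2 of the 13 were called, both higher, a share near the 10.7% of all genes. They were ATHSP22.0 (1.10 ± 0.14) and HSP18.2 (1.02 ± 0.12), with base means of 342 and 322 in the authors' deposited table. At the adjusted p alone 5 were higher and 4 lower, beside 53.3% of all genes in either direction. Among the 10 genes, the one called with KNO3 in any genotype was DREB2A in nlp7-1.

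Outside these lists, the genes whose 5 log2 fold changes were closest to the medians of the 10, by Euclidean distance over 1700 genes listed in all tables, were PMZ (distance 0.348), AT3G53600 (0.452), LAC1 (0.459), AGC2-1 (0.698) and AT3G09405 (0.727). PMZ had log2 fold changes of 3.97 with H2O2 and -0.04 with KNO3 in wild type in the authors' deposited table. Hop3 lay closest to the medians among the 10, at 0.376, and MBF1C farthest, at 1.54. The comparisons share control groups, so a small distance is a description of these values.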

How the data were processed

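The data are 5 tables deposited by the authors, 1 per comparison. Reads from the BGISEQ-500 were mapped to TAIR10 with HISAT and Bowtie2, counted with htseq-count at default settings and tested with DESeq2, per the labels and the submitters' processing notes. No versions were stated. According to the file headers, the deposited values are the base mean (a signal of normalised counts), the log2 fold change and its SE, the Wald statistic (a score), the p-value and the adjusted p-value. The tables of WT and hbi-q share 1 base mean for each of 22954 genes. The members and gene lists were chosen with earlier results of these data known. Other list genes are named with values if called in any comparison (37 genes; the 20 with the largest change first, then examples chosen after their values were seen).

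Group levels assumed 2 groups of equal size per fit, which the agreement of both H2O2 tables bears on and which could not be checked for nlp7-1. The hbi-q levels instead assumed that the fit shared with wild type held the KNO3 and mock groups of both genotypes at equal size. The wild-type mock level, also the one used for hbi-q, came from the H2O2 comparison. The wild-type level with KNO3 was this mock level multiplied by the fold change of the wild-type KNO3 comparison. It thus joins values of separate fits. The level with KNO3 and H2O2 was scaled by 1.05. Differences of log2 fold changes were tested two-sided against a normal distribution, with Benjamini-Hochberg adjustment across all genes. This step was run on simulated data whose errors were drawn from the deposited SE. That run could not show whether the SE fits the real data. In the real data the statistic had a robust SD over all genes of 1.30 for hbi-q, 1.88 for nlp7-1 and 1.97 for H2O2. The SE of the derived H2O2 response with KNO3 assumes independent groups, and no test was made. Python 3.11.15, pandas 2.3.3, numpy 2.4.6, scipy 1.17.1 and matplotlib 3.10.9 were used. Motifs were searched in RefSeq TAIR10.1, whereas reads were mapped to TAIR10. A count model per library had been foreseen, but values per library were not used here.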

Additional observations from a re-analysis of the deposited data

Results flagged for a closer look

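The nitrate response differed by genotype or by H2O2 in 6 cases, each by the test of the difference itself. Beyond the 10 genes this test was read for DREB2C alone, which was picked after its values were seen. The 6 cases are therefore not a count over the gene lists. DREB2A had a log2 nitrate response 1.25 higher in nlp7-1 than in wild type, and DREB2C, outside the 10 genes, 1.32 higher. With H2O2 minus without H2O2 in wild type, the difference was -1.05 for FES1A, -0.58 for DREB2A, -0.39 for HSP90.1 and 0.39 for Hsp70b. The test statistic had a robust SD over all genes of 1.88 for nlp7-1 and 1.97 for H2O2. After rescaling by it the FES1A call remained and the other 5 were lost. This spread can hold true differences as well as error, so a lost call does not show that a gene responded alike.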

How the results depend on the processing

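No paired analysis was possible because the files hold no values per library, and leaving out each replicate was not run for the same reason. Without a fold limit, the called genes among the 10 numbered 4 in hbi-q, 4 in nlp7-1, 5 in wild type and 3 with KNO3 and H2O2 against H2O2, and over all genes 13382, 9641, 13369 and 11879. At 1.5-fold they numbered 2, 3, 2 and 1 of the 10, and 7466, 7213, 7107 and 5840 of all genes. For the difference of nlp7-1 from wild type, 0 of the 10 were called at an adjusted p of 0.01 and 0 with the rescaled statistic, and over all genes 972 and 64, with 790 at 2-fold. For hbi-q against wild type, 785 genes were called at an adjusted p of 0.01, 273 at 2-fold and 528 with the rescaled statistic. For H2O2, 1 of the 10 was called at 2-fold and 1 with the rescaled statistic, and 1206 and 857 of all genes. The causes of these shifts beyond the changed limits were not tested. The other 34 counts stayed within 1.5 times. The H2O2 calls of the 10 genes held at an adjusted p of 0.01, and looser fold limits could not change them because the deposited table holds only genes past 2-fold. A base mean minimum of 10 moved no count of the 10. Depth per library is unknown, and with 3 libraries a group the SE sets what can be told apart.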
